A study of Gallus gallus with 6 samples.

Results

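The insulin, FOXO and energy sensing genes described here are 10 genes chosen by name: INSR, IRS2, PIK3R1, FOXO1, FOXO3, SIRT1, PRKAA1, PRKAA2, PPARGC1A and TRIB2. They are 10 of the 14078 genes in the liver table. Of these, 9 were found by gene name, and FOXO1 was found through its description because the table lists it under the older name FKHR. The 6 livers came from female Lushi chickens (the Lushi green shell strain of this Chinese domestic breed) kept in cages with free access to feed, and the labels name no treatment. The L20 group was 3 juvenile hens of 20 weeks and the L30 group was 3 laying hens of 30 weeks, with 1 RNA-Seq library per hen. Age and the onset of laying changed together, so the parts that each plays in a difference cannot be told apart.

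Insulin binds its receptor on the hepatocyte, the receptor phosphorylates substrates such as IRS2, and these recruit phosphoinositide 3-kinase, whose lipid product activates AKT. In mammals, AKT keeps the FOXO transcription factors out of the nucleus, and FOXO factors that stay there drive genes of gluconeogenesis, stress resistance and also IRS2. AMPK and SIRT1 sense low energy through AMP and NAD+, and PGC-1α, the product of PPARGC1A, is a coactivator on which both act. In birds the liver is the main site of fatty acid synthesis, and in laying hens it also makes the precursors of egg yolk.

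PIK3R1, FOXO3 and IRS2 were higher in all 3 laying hens than in any juvenile hen, whereas the insulin receptor, FOXO1, SIRT1, the AMPK catalytic subunit PRKAA1, PPARGC1A and TRIB2 overlapped between the groups. FPKM here are sequenced fragments of a gene, scaled by its exon length and by a library factor that does not follow total reads. In mean FPKM, PIK3R1 was 5.10 times, IRS2 3.67 times and FOXO3 3.61 times as high in L30 as in L20. Levels averaging 1 FPKM or more, found for 9 of the 10 genes, were tested with limma on log2(FPKM + 1), a scale that understates the change of low genes. PIK3R1 was the only SDE gene (significantly differentially expressed: Benjamini-Hochberg adjusted p of 0.05 or less over all genes tested, and a ratio of group means of at least 2 or at most 0.5). Over all 9732 genes tested, 2.75% met that rule, 1.82% as higher in L30. PIK3R1, FOXO3 and IRS2 met the looser DE rule, an unadjusted p of 0.05 or less, which 22.7% of all genes tested met, 11.0% as higher and 11.7% as lower in L30. The groups did not overlap for these 3 genes, nor for 30.0% of all genes tested, 14.0% with L30 above. The median log2 fold change of the 9 genes was 0.14, and that of all genes tested was -0.04.

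**Figure D1:**
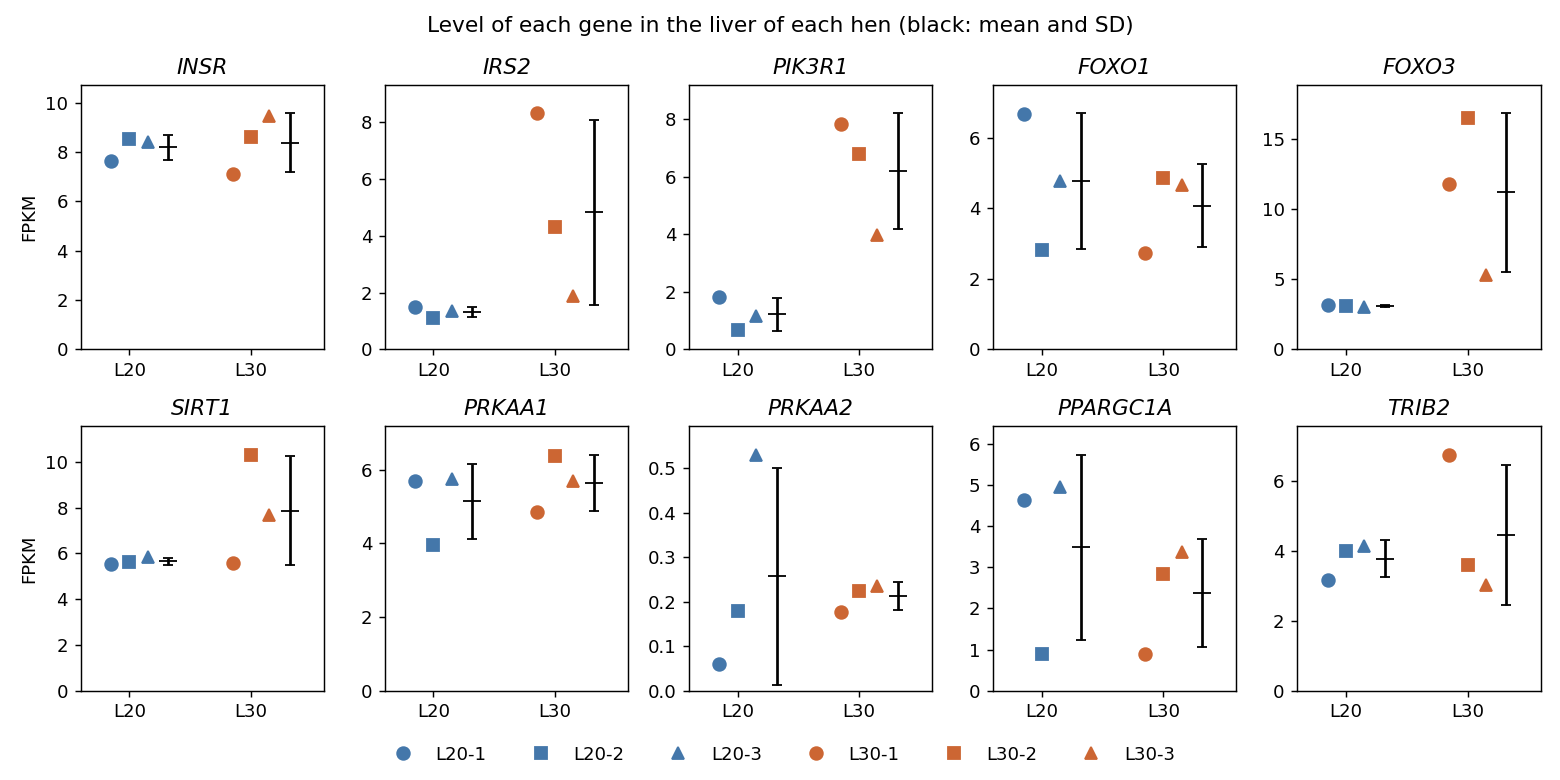
Level of each of the 10 genes in FPKM (vertical axes, each starting at 0) in the 3 L20 and 3 L30 hens, with 1 symbol per hen, and the mean with its SD in black. PIK3R1, FOXO3 and IRS2 lie higher in every L30 hen than in every L20 hen, and for each of them L30-3 is the lowest L30 hen.

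The 6 libraries held 13764761 to 21570437 reads on genes, recovered from the deposited scaled counts, and the 10 genes together took 3363 to 5078 reads per library. The labels give the tissue as liver, and the 9 hepatocyte markers summed to 46183 to 59346 FPKM in L20 and 30044 to 43873 FPKM in L30. These markers went both ways, with 3 higher in L30 by the DE rule defined above (ALB, HNF4A, AHSG), 3 lower (FGA, FGB, FGG) and a median log2 fold change of 0.12. The 7 leukocyte and macrophage markers summed to 777 to 837 FPKM in L20 and 506 to 642 FPKM in L30, and none was at 0. The 8 endothelial markers summed to 80.5 to 92.5 FPKM in L20 and 37.7 to 65.6 FPKM in L30. All 8 had a negative log2 fold change, 4 of them were lower by the DE rule, and the groups did not overlap for 3. Over all genes tested, 11.0% were higher and 11.7% lower by the DE rule, and 16.0% lay lower in every L30 hen than in any L20 hen. In whole liver, fewer cells of a type and less RNA per cell cannot be told apart. Scaling to the recovered reads of each library, in place of the deposited scaling, moved the median log2 fold change of all genes from -0.04 to -0.26.

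INSR encodes the insulin receptor (ENSGALG00000003579, chromosome 28, 3878506 to 3912897, galGal4). Its level was 7.62, 8.54 and 8.39 FPKM in L20-1, L20-2 and L20-3, and 7.09, 8.60 and 9.45 FPKM in L30-1, L30-2 and L30-3. The L30 hens spanned the whole range of the L20 hens. The log2 fold change was 0.02 with an SE of 0.13 and a 95% interval of -0.29 to 0.34 (limma, adjusted p = 0.933), and the sign turned with other scalings: it was -0.04 with upper-quartile scaling and -0.22 when scaled to total recovered reads. Among the 10 genes, INSR had the highest mean level in L20, 8.18 ± 0.493 FPKM (SD, n = 3), against 8.38 ± 1.19 FPKM (SD, n = 3) in L30.

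IRS2 encodes an adaptor that links the insulin receptor to phosphoinositide 3-kinase (ENSGALG00000016839, chromosome 1, 137992923 to 137995864). Its level was 1.48, 1.11 and 1.35 FPKM in L20-1, L20-2 and L20-3, and 8.31, 4.30 and 1.87 FPKM in L30-1, L30-2 and L30-3. All L30 hens lay above all L20 hens, but L30-3 was much nearer to the juvenile hens than to L30-1. The reads behind these values were 61, 54 and 52 in L20 and 407, 118 and 59 in L30. IRS2 had a log2 fold change of 1.17 (SE 0.40, 95% interval 0.20 to 2.15), with an unadjusted p of 0.0255 and an adjusted p of 0.161 (limma), so IRS2 met the DE rule and not the SDE rule. Without L30-3 the log2 fold change of IRS2 was 1.60 (limma, adjusted p = 0.0385), and without L30-1 it was 0.75. Leaving out L20-1, L20-2, L20-3 or L30-2 lost the DE call, with unadjusted p values of 0.0510 to 0.0703 (limma). An exact permutation test gave p = 0.1, below which groups of this size cannot go.

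IRS2 has a limit of its own. The table gives the same span of chromosome 1 to a second, uncharacterised gene (ENSGALG00000026287), so the counting may have divided reads between them and the level of IRS2 alone is uncertain. That gene was at 1.15, 1.82 and 1.49 FPKM in L20 and at 8.90, 5.88 and 2.12 FPKM in L30. It followed the same order of L30 hens, with a log2 fold change of 1.27 (SE 0.41, limma, adjusted p = 0.143). Scaled to the total recovered reads of its library, IRS2 was lower in L30-3 than in L20-1, so on that scale the groups overlapped. Both genes together had 77, 84 and 72 reads in L20 and 554, 172 and 82 reads in L30, and scaled in the same way this sum was higher in every L30 hen than in any L20 hen.

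PIK3R1 encodes the p85α regulatory subunit of phosphoinositide 3-kinase, which binds the phosphorylated substrates (ENSGALG00000014786, chromosome Z, 21464000 to 21515025). Its level was 1.82, 0.671 and 1.15 FPKM in L20-1, L20-2 and L20-3, and 7.85, 6.79 and 3.97 FPKM in L30-1, L30-2 and L30-3. The lowest laying hen was thus more than 2 times as high as the highest juvenile hen. The reads were 128, 61 and 94 in L20 and 664, 323 and 217 in L30. PIK3R1 rose in L30, with a log2 fold change of 1.69 (SE 0.28, 95% interval 1.01 to 2.37) and an adjusted p of 0.0388 (limma). The call held without L30-3, with an adjusted p of 0.0226, and was lost without any other single hen, with adjusted p between 0.0504 and 0.142 and log2 fold changes between 1.50 and 1.88. It was also lost with no filter on low values (limma, adjusted p = 0.0577) and with the replicate number as a block (adjusted p = 0.0848, limma). On recovered reads its adjusted p was 0.0293 with edgeR and 1.95e-06 with DESeq2. PIK3R1 and FOXO3 were the SDE genes among the 10 with edgeR, and PIK3R1, FOXO3 and IRS2 with DESeq2. The same rule was met by 3.83% of all genes that edgeR tested and 6.88% of those that DESeq2 tested, and the DE rule, met by these 3 of the 10 genes with both tools, by 23.1% and 21.4%.

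FOXO3 encodes a forkhead factor that in mammals acts in stress resistance, autophagy and metabolism (ENSGALG00000015297, chromosome 3, 66702482 to 66716393). Its level was 3.16, 3.10 and 3.06 FPKM in L20-1, L20-2 and L20-3, and 11.8, 16.5 and 5.29 FPKM in L30-1, L30-2 and L30-3. The juvenile hens were nearly alike, and the laying hens were all higher but far apart. The SD of log2(FPKM + 1) was 0.02 in L20, below that of all but 1.09% of the genes tested, and 0.76 in L30, where the median gene had 0.19. FOXO3 had a log2 fold change of 1.45 (SE 0.36, 95% interval 0.58 to 2.32), with an unadjusted p of 0.00609 and an adjusted p of 0.0815 (limma), so FOXO3 met the DE rule and not the SDE rule. Without L30-3 the adjusted p was 0.00888, and without any other hen it was between 0.159 and 0.222. On recovered reads (97, 114 and 97 in L20 and 425, 332 and 122 in L30) the adjusted p was 0.0435 with edgeR and 0.000207 with DESeq2.

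FOXO1, the forkhead factor best known for driving gluconeogenesis in mammalian liver (ENSGALG00000017034, chromosome 1, 169877051 to 169935660), overlapped between the groups. Its level was 6.69, 2.83 and 4.78 FPKM in L20-1, L20-2 and L20-3, and 2.72, 4.86 and 4.65 FPKM in L30-1, L30-2 and L30-3. The lowest hens were 1 juvenile and 1 laying hen, L20-2 and L30-1. The log2 fold change was -0.16 (SE 0.30, 95% interval -0.88 to 0.57, limma adjusted p = 0.789), and it was 0.08 without L20-1 and 0.05 without L30-1.

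The balance of the paired FOXO genes was compared within each hen, as the log2 ratio of FPKM + 1. FOXO3 over FOXO1 was -0.88, 0.10 and -0.51 in L20-1, L20-2 and L20-3, and 1.78, 1.58 and 0.15 in L30-1, L30-2 and L30-3. In FPKM, FOXO3 was 0.473 to 1.10 times FOXO1 in the juvenile hens and 1.14 to 4.33 times FOXO1 in the laying hens. The groups did not overlap, by a narrow margin between L20-2 and L30-3. The means were -0.43 ± 0.50 and 1.17 ± 0.89 (SD, n = 3 each), a difference of 1.60 with an exact permutation p of 0.1, the smallest possible. Leaving out any 1 hen gave differences of 1.30 to 2.11. On the same scale the log2 fold change was 1.45 for FOXO3 alone and -0.16 for FOXO1, so the ratio largely restates the change of FOXO3.

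PRKAA1 encodes the α1 catalytic subunit of AMPK, the kinase activated by AMP (ENSGALG00000014832, chromosome Z, 12752036 to 12772090). Its level was 5.70, 3.96 and 5.75 FPKM in L20-1, L20-2 and L20-3, and 4.84, 6.38 and 5.69 FPKM in L30-1, L30-2 and L30-3. The groups overlapped, with a log2 fold change of 0.12 (SE 0.17, 95% interval -0.28 to 0.52, limma adjusted p = 0.702) that was -0.11 when scaled to total recovered reads and -0.03 without L20-2.

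PRKAA2 encodes the α2 catalytic subunit (ENSGALG00000010826, chromosome 8, 24663004 to 24679845) and was the lowest of the 10 genes in every hen. It stood at 0.0607, 0.178 and 0.530 FPKM in L20-1, L20-2 and L20-3, and at 0.176, 0.224 and 0.235 FPKM in L30-1, L30-2 and L30-3. These values rest on 2, 7 and 18 reads in L20 and 7, 5 and 6 reads in L30, and at a mean of 0.234 FPKM the gene was below the level tested. With DESeq2, which did test PRKAA2, the log2 fold change was -0.18 (adjusted p = 0.949), and so few reads cannot decide whether the groups differ. In FPKM, PRKAA1 was 10.8 to 93.8 times PRKAA2 in L20 and 24.2 to 28.4 times in L30. The log2 ratio of FPKM + 1 differed by 0.16 between the groups (exact permutation p = 0.5), but the sign depends on the pseudocount: the difference was -0.044 with a pseudocount of 0.01 and -0.056 in recovered reads.

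SIRT1, the NAD+-dependent deacetylase (ENSGALG00000002761, chromosome 6, 6071358 to 6096385), was at 5.51, 5.60 and 5.82 FPKM in L20-1, L20-2 and L20-3, and at 5.59, 10.3 and 7.69 FPKM in L30-1, L30-2 and L30-3. The juvenile hens were nearly alike, L30-1 lay among them, and the other two laying hens were higher. The SD of log2(FPKM + 1) was 0.03 in L20 and 0.39 in L30. SIRT1 had a log2 fold change of 0.38 (SE 0.20, 95% interval -0.10 to 0.87), and it did not meet either rule (limma, adjusted p = 0.312).

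PPARGC1A (ENSGALG00000014398, chromosome 4, 73626291 to 73691855), the coactivator gene of mitochondrial biogenesis and gluconeogenesis, was the most scattered of the 9 tested genes of the 10 among the juvenile hens. Its level was 4.63, 0.900 and 4.96 FPKM in L20-1, L20-2 and L20-3, and 0.886, 2.85 and 3.38 FPKM in L30-1, L30-2 and L30-3. As for FOXO1, the lowest hens were L20-2 and L30-1. PPARGC1A had a log2 fold change of -0.33 (SE 0.53, limma adjusted p = 0.741), and its 95% interval of -1.61 to 0.94 leaves room for a wide range of changes in either direction.

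TRIB2 encodes a pseudokinase, a kinase-like protein that in mammals binds AKT and restrains FOXO factors (ENSGALG00000016457, chromosome 3, 97427884 to 97448910). Its level was 3.16, 4.01 and 4.15 FPKM in L20-1, L20-2 and L20-3, and 6.75, 3.59 and 3.03 FPKM in L30-1, L30-2 and L30-3. L30-1 was above all other hens and L30-3 was below them all. The log2 fold change was 0.14 (SE 0.26, 95% interval -0.48 to 0.76, limma adjusted p = 0.781), and its sign turned to -0.14 without L30-1 and to -0.07 when scaled to total recovered reads. TRIB1, the related pseudokinase on the Tribbles list, was at 12.2, 27.6 and 28.3 FPKM in L20 and at 15.6, 12.1 and 20.7 FPKM in L30 (limma, adjusted p = 0.533).

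**Figure D2:**
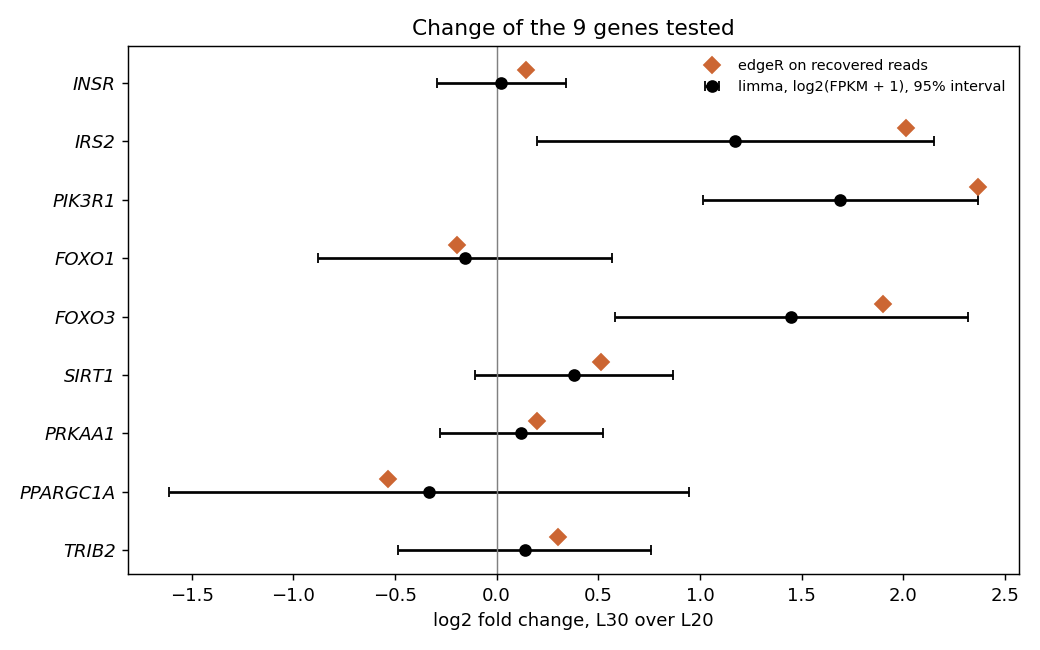
Log2 fold change of L30 over L20 (horizontal axis) for the 9 genes tested. Black points with bars are limma estimates on log2(FPKM + 1) with 95% intervals, orange diamonds are edgeR estimates on recovered reads. The intervals of PIK3R1, FOXO3 and IRS2 lie above 0 and the other 6 include it, and edgeR puts these 3 genes at 2.37, 1.90 and 2.01.

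The order of the mean levels differed between the groups as a result of these values. In L20 the order was INSR, SIRT1, PRKAA1, FOXO1, TRIB2, PPARGC1A, FOXO3, IRS2, PIK3R1 and PRKAA2, from 8.18 to 0.257 FPKM. Neighbours overlapped in their hens except at INSR to SIRT1, FOXO3 to IRS2 and PIK3R1 to PRKAA2. In L30 the order was FOXO3, INSR, SIRT1, PIK3R1, PRKAA1, IRS2, TRIB2, FOXO1, PPARGC1A and PRKAA2, from 11.2 to 0.212 FPKM, and only PPARGC1A and PRKAA2 did not overlap as neighbours. The place of IRS2 in both orders is uncertain, since its reads may be divided with the gene of the same span.

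The wider pathway was described with 6 lists of 105 other genes, of which 88 were matched in the table and 84 were tested. Of these 84, 9 were higher and 5 lower in L30 by the DE rule, and 1, PIK3CD, was SDE. That is 16.7% past the DE rule against 22.7% of all genes tested, so the lists as a whole did not hold more DE genes than the table. With values scaled to total recovered reads the split was 3 higher and 20 lower, and over all genes it was 507 higher and 2834 lower in place of 1070 and 1143. With upper-quartile scaling it was 8 and 8 for the lists, and 878 and 1490 over all genes.

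**Figure D3:**
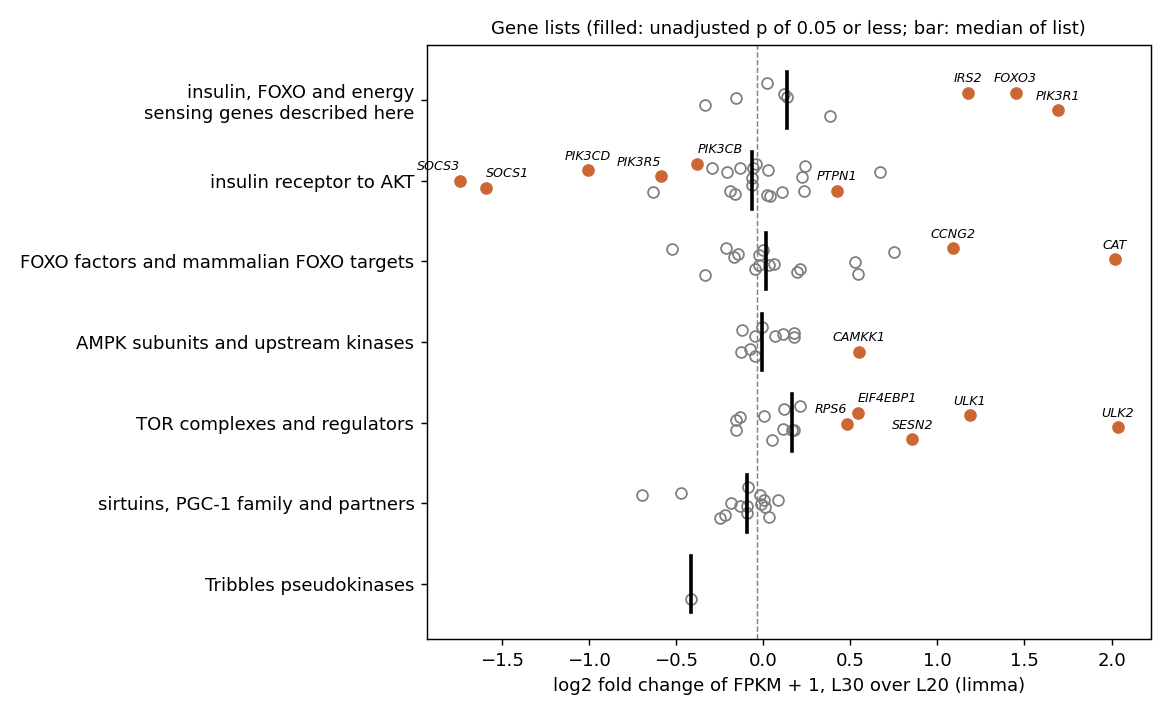
Log2 fold change of L30 over L20 from limma on log2(FPKM + 1) (horizontal axis) for the tested genes of each list, 1 circle per gene, with filled circles for an unadjusted p of 0.05 or less and a black bar for the list's median. The dashed line is the median of all 9732 genes, -0.04. Filled circles on the side of L20 are all on the list from the insulin receptor to AKT.

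Between the insulin receptor and AKT, 24 of 28 listed genes were tested, with 1 higher, 5 lower and 18 past neither rule, and a median log2 fold change of -0.06. The DE rule was thus met by 25.0% of them, near the 22.7% of all genes tested. PIK3CD, the p110δ catalytic subunit that is most abundant in leukocytes, fell from 4.97, 5.08 and 6.64 FPKM in L20 to 2.31, 1.92 and 2.54 FPKM in L30, a log2 fold change of -1.01 (SE 0.14, limma adjusted p = 0.0260). The PIK3CD call held without L30-3 (limma, adjusted p = 0.0338) and was lost without any other single hen, with adjusted p between 0.0509 and 0.0911. PIK3R5, a regulatory subunit also found mainly in leukocytes, was at 3.12, 2.86 and 3.64 FPKM in L20 and 2.53, 1.52 and 1.46 FPKM in L30 (adjusted p = 0.120, limma). All 7 leukocyte and macrophage markers also lay lower in every L30 hen than in any L20 hen, as did 16.0% of all genes tested. Of these 7, 6 were lower by the DE rule, beside 11.7% of all genes tested, and their median log2 fold change was -0.74. PIK3CG and INPP5D of the same list did not follow this pattern and overlapped between the groups. Their log2 fold changes were 0.03 and -0.19 (limma, adjusted p = 0.920 and 0.468), and they were chosen after their values were seen. The part of the leukocyte and macrophage markers in the PIK3CD and PIK3R5 values was not tested.

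SOCS1, a feedback inhibitor of cytokine and insulin signalling, was at 8.39, 33.6 and 26.4 FPKM in L20 and close to 5.9 FPKM in each L30 hen, between 5.82 and 5.97 FPKM. Its log2 fold change was -1.59 (SE 0.47, limma adjusted p = 0.117). The adjusted p of SOCS1 was 0.00199 with DESeq2, 0.0698 with edgeR and 0.00819 to 0.301 with 1 hen left out (limma). PIK3CB, a second p110 subunit, and SOCS3, a relative of SOCS1, were the other genes lower by the DE rule, and PTPN1, the phosphatase that dephosphorylates the insulin receptor, was the 1 gene higher by it, at 0.42 on the log2 scale (adjusted p = 0.127, limma). These 3 were chosen after their values were seen.

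The other receptor substrates on the list, IRS1 and IRS4, met neither rule. IRS1 was at 4.56, 5.88 and 4.30 FPKM in L20 and 3.59, 1.33 and 4.12 FPKM in L30, lower in every L30 hen, with a log2 fold change of -0.63 (SE 0.31, limma adjusted p = 0.286). IRS4 was at 6.20, 10.4 and 6.37 FPKM in L20 and 9.53, 10.8 and 18.4 FPKM in L30, with overlap and a log2 fold change of 0.67 (SE 0.29, limma adjusted p = 0.236). In FPKM, a scale per length, mean IRS2 was below both IRS1 and IRS4 in L20, and between them in L30. That place of IRS2 is uncertain, since its reads may be divided with the gene of the same span. The kinase AKT1 was at 16.2 to 23.2 FPKM in L20 and 18.3 to 21.1 FPKM in L30, with overlapping groups.

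Of 23 listed FOXO factors and genes known as FOXO targets in mammals, 18 were tested, with 2 higher and none lower by the DE rule of limma, and a median log2 fold change of 0.02. That is 11.1% past the DE rule, all higher, against 22.7% of all genes tested, 11.0% as higher. CAT, the hydrogen peroxide-degrading enzyme catalase, was at 221, 73.2 and 120 FPKM in L20 and 498, 605 and 436 FPKM in L30. Its groups did not overlap, and its log2 fold change of 2.02 (SE 0.40) had an adjusted p of 0.0520 (limma), close to the threshold. CAT passed it with a pseudocount of 0.01 (0.0493), over genes of at least 5 FPKM (0.0468), without L20-1 (0.0290) and with DESeq2 (4.61e-05), and the other alternatives gave adjusted p values up to 0.173. CCNG2, a cyclin that restrains the cell cycle, was at 11.3, 8.38 and 11.2 FPKM in L20 and 28.4, 37.9 and 10.9 FPKM in L30, so L30-3 lay among the juvenile hens (limma, adjusted p = 0.207). The adjusted p of CCNG2 was 0.0196 with DESeq2, 0.117 with edgeR and 0.0241 to 0.432 with 1 hen left out (limma). BCL6, a transcriptional repressor, had a log2 fold change of -0.52 and met neither rule (adjusted p = 0.262, limma). FOXO4 overlapped between the groups, at 4.35 to 7.26 and 4.48 to 5.93 FPKM, and FOXO6 was near 0, at 0 to 5 reads per hen.

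The gluconeogenic gene PCK1 was the most variable of the FOXO targets, at 8.20, 0.0733 and 9.69 FPKM in L20-1, L20-2 and L20-3 and at 1.26, 33.9 and 0.328 FPKM in L30-1, L30-2 and L30-3. PCK1 had a log2 fold change of 0.00 with an SE of 1.44 (limma, adjusted p = 0.999). The ratio of its mean FPKM in L30 to that in L20 was 1.98, and edgeR put the log2 fold change at 1.02. Leaving out 1 hen gave -1.45 to 0.91 with limma, so neither its size nor its sign is settled. It was chosen after its values were seen.

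Among AMPK subunits and upstream kinases, 11 of 13 listed genes were tested, with a median log2 fold change of -0.01. Of these 11, 1 was DE (9.09%, against 22.7% of all genes tested). That gene was CAMKK1, a calcium-dependent kinase, at 0.850, 1.11 and 0.606 FPKM in L20 and 1.29 to 2.07 FPKM in L30, above all L20 hens, a log2 fold change of 0.55 (SE 0.17, limma adjusted p = 0.127). The adjusted p of CAMKK1 was 0.0391 with DESeq2 and 0.105 with edgeR. The β and γ subunit genes PRKAB1, PRKAB2, PRKAG1 and PRKAG2 had log2 fold changes between -0.13 and 0.07, all with overlapping groups. PRKAG3, the γ subunit of skeletal muscle, was at 0.102 FPKM or less in every hen. The partners of the upstream kinase LKB1 (STRADA, STRADB, CAB39 and CAB39L) lay between -0.08 and 0.18 on the log2 scale, CAMKK2 was at -0.12 and MAP3K7 at -0.05, and none met the DE rule (limma).

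The list of TOR complexes and regulators, the growth-promoting branch that AMPK restrains, had 15 of 20 genes tested, with 5 higher and none lower by the DE rule, beside 11.0% higher and 11.7% lower of all genes, and a median log2 fold change of 0.17. Scaled to total recovered reads, only 3 genes of all 6 lists were higher by that rule. RPS6, the ribosomal protein phosphorylated downstream of TOR, was at 253, 244 and 245 FPKM in L20 and 350, 340 and 348 FPKM in L30 (log2 fold change 0.48, SE 0.13, limma adjusted p = 0.10). EIF4EBP1, the translation repressor that TOR inactivates, was at 92.4, 111 and 103 FPKM in L20 and 143, 153 and 150 FPKM in L30 (0.54, SE 0.14, limma adjusted p = 0.0855). These values hardly varied within a group, but when scaled to total recovered reads the log2 fold changes were only 0.22 for RPS6 and 0.28 for EIF4EBP1, neither past an adjusted p of 0.05.

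ULK2, a kinase that starts autophagy and that TOR inhibits, was at 19.7, 13.1 and 12.5 FPKM in L20 and 66.3, 135 and 28.7 FPKM in L30, with a log2 fold change of 2.03 (SE 0.54, limma adjusted p = 0.0925). Its relative ULK1 was at 2.39, 3.09 and 2.99 FPKM in L20 and 14.7, 8.96 and 3.17 FPKM in L30 (1.18, SE 0.46, limma adjusted p = 0.198). With DESeq2 the adjusted p was 0.000132 for ULK2 and 0.00688 for ULK1, and with edgeR 0.0597 and 0.0997. With 1 hen left out, limma gave adjusted p values of 0.0269 to 0.253 for ULK2 and 0.0247 to 0.401 for ULK1. SESN2, a stress-induced inhibitor of TOR, was at 3.74, 8.63 and 4.31 FPKM in L20 and 11.2, 10.1 and 9.67 FPKM in L30 (adjusted p = 0.136, limma). ULK1 and SESN2 were chosen after their values were seen. The DE genes of this list thus held genes whose proteins act downstream of TOR (RPS6, EIF4EBP1) as well as genes of autophagy and TOR inhibition. None was SDE with limma, against 2 with DESeq2. These are mRNA levels, and the activity of TOR was not measured.

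None of the 15 genes of the list of sirtuins, PGC-1 family and partners met the DE rule of limma, edgeR or DESeq2, and their median log2 fold change was -0.09. Over all genes tested, 22.7% met it with limma, 23.1% with edgeR and 21.4% with DESeq2. SIRT3, a mitochondrial deacetylase, was at 22.4, 18.1 and 24.6 FPKM in L20 and 11.1, 16.1 and 19.7 FPKM in L30 (-0.47, SE 0.23, limma adjusted p = 0.278). NAMPT, which makes NAD+ from nicotinamide, was at 57.9, 83.5 and 106 FPKM in L20 and 31.4, 57.2 and 65.4 FPKM in L30 (-0.70, SE 0.34, limma adjusted p = 0.284). SIRT2, SIRT4, SIRT5 and SIRT6 lay between -0.25 and 0.09 on the log2 scale, and TFAM, the mitochondrial transcription factor, was at -0.18.

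The lowest laying hen, though not the full order of the hens, recurred across several genes. L30-3 was the lowest laying hen for IRS2, PIK3R1 and FOXO3, and also for ULK1, ULK2 and CCNG2. INSR, IRS1 and IRS4 went the other way and were highest in L30-3 among the laying hens. These genes were picked for this comparison after their values were seen, and the share of all genes lowest in L30-3 was not counted. The 6 lipogenic genes matched, including FASN and SCD, summed to 443, 470 and 361 FPKM in L20-1, L20-2 and L20-3, and to 3349, 3049 and 233 FPKM in L30-1, L30-2 and L30-3. The low sum of L30-3 rests largely on ELOVL6, at 51.8 FPKM in L30-3 and 177 to 241 FPKM in L20. ACACA (23.4 FPKM, against 29.5 to 69.3 FPKM in L20) and ME1 (6.08 FPKM, against 6.43 to 9.23 FPKM in L20) of L30-3 were also below every juvenile hen. FASN, SCD and SREBF1 of L30-3 were between the lowest and the highest juvenile value. PIK3R1 and FOXO3 of L30-3 stayed above every juvenile hen. The part of this hen's lipogenic state in the values above was not tested.

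PPARGC1A and FOXO1 shared their 2 lowest hens, L20-2 and L30-1. IGFBP1, which encodes an insulin-repressed binding protein in mammals, and PNPLA2, which encodes the triglyceride lipase ATGL, were lowest in the same hens. So were PRKAA1, PRKAB2 and STRADA of the AMPK list, and PPARGC1B of the PGC-1 family. The pattern was thus not particular to PPARGC1A and FOXO1. IGFBP1 was at 11.4, 3.31 and 20.3 FPKM in L20 and at 4.08, 21.5 and 10.4 FPKM in L30. PNPLA2 was at 34.4, 10.2 and 19.5 FPKM in L20 and in L30 at 26.5 and 26.9 FPKM in L30-2 and L30-3, and below every other hen in L30-1. These 2 hens also had the deepest libraries, 21445919 and 21570437 reads, and the part of depth was not tested. PCK1 was also low in both but lower in L30-3 than in L30-1, and PDK4, which restrains pyruvate oxidation, was lowest in L30-1 and L20-1. These genes were picked for this comparison after their values were seen, and with 6 hens the shared lowest hens are a description.

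**Figure D4:**
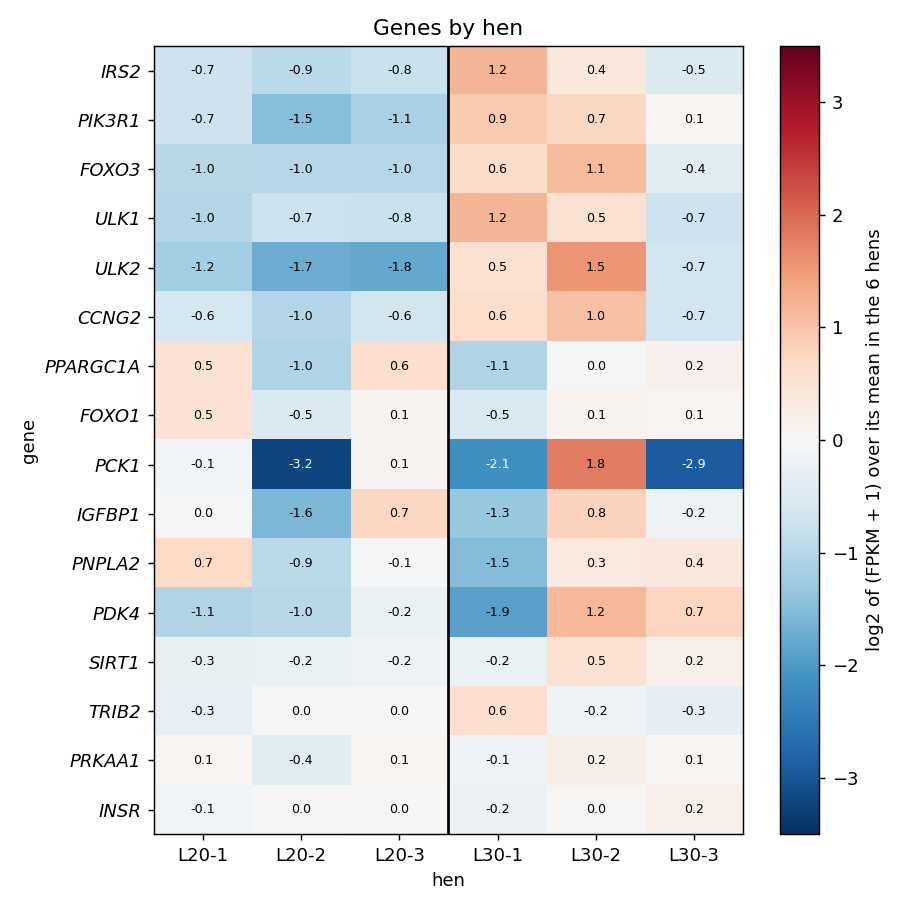
Level of 16 genes (vertical) in each hen (horizontal), from blue (lower) to red (higher). Values are the log2 of FPKM + 1 divided by the gene's mean FPKM + 1 over the 6 hens. The upper 6 genes, among them IRS2, PIK3R1 and FOXO3, are higher in L30-1 and L30-2 than in L30-3. The block from PPARGC1A to PNPLA2 is low in L20-2 and L30-1, and PRKAA1 is also lowest in those hens.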

How the data were processed

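From total liver RNA of 6 hens, 3 per group as given by the labels, mRNA was selected with oligo(dT) beads and sequenced as 1 library per hen. Per the labels, the authors used CASAVA 1.8.2, TopHat2 2.0.9, Cuffdiff and the galGal4 genome. They deposited FPKM per gene and hen, and a read count divided by 1 factor per library, a signal that is not whole. The deposited FPKM follow that library factor and not the total reads. Whether counting used strand is not given in the sources used here.

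Differences were tested on log2(FPKM + 1) in R 4.3.3 with limma 3.58.1 (eBayes, trend), for the 9732 genes averaging 1 FPKM or more. The limma p-values set the difference between the groups against the spread between hens within groups, moderated over all genes tested. Dividing the scaled counts by the value of 1 read gave whole numbers for 99.856% to 99.931% of values up to 20 reads (tolerance 0.01). In L20-3, L30-2 and L30-3, 1 or 2 values fell below 1 read, and an automatic check of the steps accepted only the other 3 libraries, so the edgeR 4.0.16 (429 SDE genes) and DESeq2 1.42.0 (883 SDE genes) results on rounded reads of all 6 are alternatives only. edgeR tested 11199 genes and DESeq2 12835, after their own filters. Single ratios had a two-sided exact permutation test. The fits were tested on simulated data, with large changes placed only in genes of at least 5 FPKM. IRS2, PIK3R1, FOXO1, TRIB2, PPARGC1A and PRKAA2 are below that level, so the simulation does not cover them. It gave every gene the same dispersion, so it does not show how a gene as scattered in L30 as FOXO3 would fare. Tables were handled with Python 3.11.15 and pandas 2.3.3.

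The 10 genes and the lists were chosen with earlier results of these data known. Named genes were the 10, every SDE gene of the lists, the AMPK and Tribbles lists, sirtuins, FOXO, IRS and AKT genes, and the 3 of lowest p in each list. A single gene among them is not reported here. Alternatives changed the pseudocount, filter, scaling, eBayes trend, replicate block and test, or left out 1 hen. Scaling to total recovered reads was added after seeing the data. GADD45A, NAMPT, NRF1 and SREBF1 were found, like FOXO1, by description. So was the hepatocyte marker TF, listed as LTF, which adds 5221 to 14476 FPKM per hen to the sum of those markers.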

Additional observations from a re-analysis of the deposited data

How the results depend on the processing

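Of the 10 genes, 1 was SDE as reported, 0 with no filter on low values, 0 with a mean FPKM of at least 5 and 0 with the replicate number as a block, 2 with edgeR and 3 with DESeq2, and 0 to 3 with 1 hen left out. The count by the DE rule went from 3 to 1 with a mean FPKM of at least 5, as did that of groups that did not overlap, since IRS2 and PIK3R1 are below that filter. That last count was 3 to 5 with 1 hen left out, and the DE count 2 to 4. Of the pathway genes, 1 was SDE as reported, 2 with a pseudocount of 0.01, 0 with the replicate block, 7 with DESeq2 and 0 to 4 with 1 hen left out. Their DE count of 14 became 9 with a mean FPKM of at least 5, 23 with values scaled to total recovered reads, and 6 (without L20-3) to 15 with 1 hen left out. Over all genes tested, 2.75% were SDE as reported, 3.83% with edgeR and 6.88% with DESeq2. Scaled to total recovered reads, 507 of all genes were higher and 2834 lower by the DE rule, in place of 1070 and 1143. Shares over all genes with another pseudocount or filter, the replicate block or 1 hen left out are not given here.

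Deviations of same-numbered hens correlated at 0.0166, 0.0117 and 0.0943 across genes, and those of differently numbered hens at -0.0744 to 0.0595. With 3 hens per group, these values cannot decide whether the numbers 1 to 3 pair the hens. With the replicate block PIK3R1 had an adjusted p of 0.0848 and PIK3CD one of 0.0755 (limma).

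The log2 ratio of PRKAA1 over PRKAA2 differed by 0.16 as reported, by -0.044 with a pseudocount of 0.01 and by -0.056 in recovered reads (exact permutation p = 1.0 for both).

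Among the genes named by the rule above, all whose sign turned had an adjusted p above 0.05 in both settings. With median-ratio scaling FOXO4 was at 0.021, PRKAG1 at 0.041, MAP3K7 at 0.00061 and PRKAB1 at 0.00062. With upper-quartile scaling INSR was at -0.042 and AKT1 at -0.049. Scaled to total reads INSR was at -0.22, PRKAA1 at -0.11, TRIB2 at -0.070, AKT1 at -0.24, CAB39 at -0.074, CAB39L at -0.043, PRKAB2 at -0.16, SIRT4 at -0.12 and STRADA at -0.066. With edgeR FOXO4 was at 0.010, PRKAB1 at 0.024, PRKAG1 at 0.088, PRKAG2 at 0.075 and SIRT2 at 0.059, and with DESeq2 PRKAB1 was at 0.014, PRKAG1 at 0.076, PRKAG2 at 0.064 and SIRT2 at 0.051. With 1 hen left out the ranges were -0.059 to 0.13 for INSR, -0.42 to 0.080 for FOXO1, -0.026 to 0.21 for PRKAA1, -0.87 to 0.040 for PPARGC1A, -0.14 to 0.33 for TRIB2, -0.087 to 0.16 for AKT1, -0.084 to 0.25 for CAB39L, -0.26 to 0.041 for CAMKK2, -0.14 to 0.17 for FOXO4, -0.14 to 0.069 for MAP3K7, -0.10 to 0.00062 for PRKAB1, -0.076 to 0.15 for PRKAB2, -0.045 to 0.051 for PRKAG1, -0.57 to 0.041 for SIRT5 and -0.20 to 0.013 for STRADB. The cause of these changes was not tested. IRS2, PIK3R1 and FOXO3 kept their direction in every alternative in which they were tested. Depth limits PRKAA2, PRKAG3 and FOXO6, which have few reads per hen.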
